A study of Mus musculus with 12 samples.

Results

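The comparison sets input (starting) RNA of Miwi -/- mice against that of Miwi +/- mice, given as late spermatocyte RNA without a marker check. Its members are the 4 input samples of these genotypes, of 12 samples in the series, and they were chosen by their titles in the labels. The study sequenced RNA depleted of ribosomal RNA, both as input and after immunoprecipitation (IP) of MIWI, in 3 genotypes with 2 samples per genotype and kind of RNA. Miwi -/- animals lack both intact copies of the gene, Miwi +/- animals carry 1 intact copy, and Miwi ADH/- animals carry an ADH allele over the null allele, so every group holds at least 1 altered copy and no wild-type group was used. Per the labels' protocols the RNA came from testes or from cells purified by flow sorting, and the sources used here do not state which samples were sorted, nor the strain or the age. In such bulk RNA, fewer cells of a type and less RNA per cell cannot be told apart.

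MIWI (PIWIL1) is a PIWI-clade Argonaute protein of male germ cells that carries pachytene piRNAs, small RNAs made in large amounts in meiotic spermatocytes and round spermatids. Spermatocytes complete meiosis to form haploid round spermatids, which then elongate, build the acrosome and tail and replace their histones first by transition proteins and then by protamines. Male mice without MIWI are known to be sterile, with germ cells that stop as round spermatids. The ADH allele is known to change the catalytic residues that a PIWI protein needs to slice its targets. The comparison asks how the RNA of the starting cells differs where MIWI is missing.

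The values at hand were a single RPKM column for each group, where RPKM is the number of reads divided by the gene's length in kilobases and by the library's reads in units of 1000000, so 2 of 6 columns enter the comparison and no spread between samples could be estimated. A gene was kept where it reached 1 RPKM in at least 2 of the 6 columns, which left 12246 of 20345 Ensembl genes. At the edge of this filter, the second-highest value of the nearest 10 kept genes lay between 1.000 and 1.003 RPKM, and that of the nearest 10 genes left out between 0.998 and 1.000 RPKM. A difference is that of log2(RPKM + 1), Miwi -/- minus Miwi +/-, and genes were called lower or higher where they lay at least 2-fold apart on that scale, which is a count by size and not a test. On this scale a fold change comes out too small for genes around 1 RPKM or less. Intervals are exact 95% Clopper-Pearson intervals of the ratio of reads and cover counting error only, since reads from PCR copies are not independent molecules.

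The reads counted in listed genes were recovered from the steps of the RPKM values. The Miwi +/- input held 3918947 and the Miwi -/- input 3810918, with a median of 97 and 83 reads per kept gene. The other 4 columns held 761525 (Miwi -/- IP) to 3706479 (Miwi ADH/- IP). A gene whose reads share a common divisor comes out with too few reads and too short a length. This happens more easily with reads in few columns. The deposited table gives Ensembl identifiers without symbols, and 0 of its 20345 identifiers matched the reference gene table. The level of the targeted gene, which would check the genotype labels, and the markers of spermatogonia, spermatocytes, spermatids, Sertoli, Leydig and other somatic cells therefore gave no value, and genes are described by level, length and behaviour across columns in place of function and germ cell stage. For the same reason at most 2 identifiers are named per direction.

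More transcripts were lower than higher in the Miwi -/- input, and the imbalance grew with the size of the difference. Of the kept genes, 1295 were lower (10.6%) and 547 were higher (4.47%), which is 2.37 lower genes for each higher one. At 4-fold and more there were 454 lower genes (3.71%) and 59 higher ones (0.482%), a ratio of 7.69. At 8-fold and more there were 175 (1.43%) and 9 (0.0735%), a ratio of 19.4. At least 16-fold apart were 57 genes, all of them lower in Miwi -/-, and 16 of these were at least 32-fold and 6 at least 64-fold lower. The counting interval of the ratio left out equality for 1222 of the 1295 lower genes, for 485 of the 547 higher genes and for all 57 of the 16-fold group. It also did so for 4280 of the 10404 genes within 2-fold and for 5987 of all 12246 kept genes. Genes called for a large ratio favour such an interval, so these counts are a description only. The median difference of all kept genes was -0.02, so the columns as a whole were level with each other. With 1 column per genotype none of these differences has a replicate check.

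**Figure D1:**
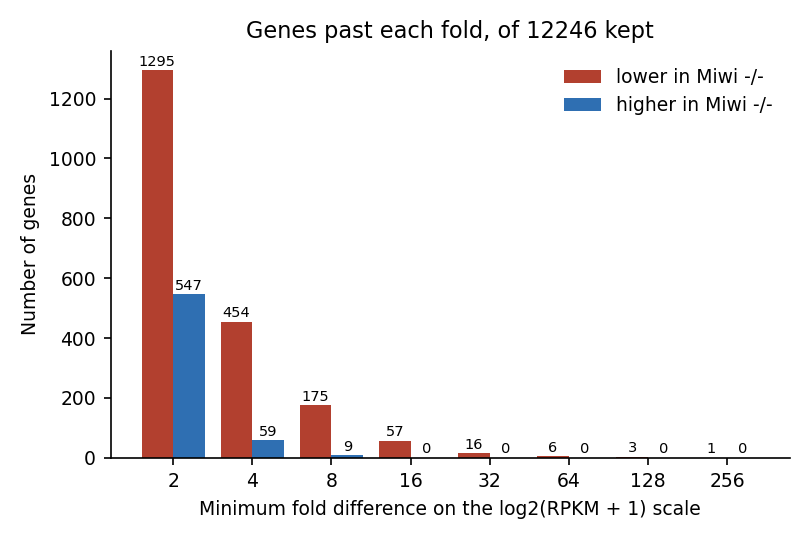
Number of kept genes (y axis) that lay at least the given fold apart (x axis, on the log2(RPKM + 1) scale) between the Miwi -/- and Miwi +/- inputs, as red bars for lower and blue bars for higher in Miwi -/-. The bars start at 0 and fall from 1295 and 547 genes at 2-fold to 175 and 9 at 8-fold, and no higher gene is left at 16-fold.

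Most of the input RNA lay within 2-fold in both genotypes. The 10404 genes within 2-fold held 95.3% of the listed reads in Miwi +/- and 96.7% in Miwi -/-. Of the 100 genes with the highest RPKM in either input, 92 were shared, and of the top 1000 genes 900 were shared. The 1295 lower genes together took 3.13% of the listed reads in Miwi +/- and 0.532% in Miwi -/-, and the 547 higher genes took 0.747% and 2.05%. The lower genes thus made up a small part of the reads, and a few of them were among the most abundant transcripts of the Miwi +/- input. Among its top 100 genes 1 was lower and 1 higher. Among its top 1000 genes, all at 73.0 RPKM or more, 21 were lower and 7 higher, and 12 of the 21 were at least 8-fold lower. Ranking by one input favours genes that are low in the other, and among the top 1000 genes of the Miwi -/- input 1 was lower, 23 were higher and 0 were at least 8-fold lower.

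**Figure D2:**
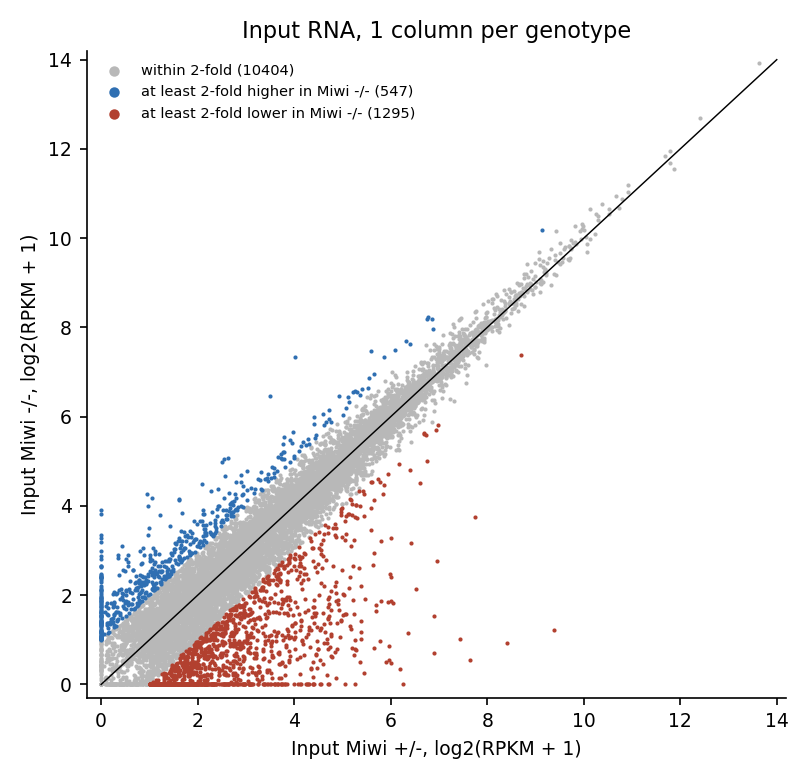
Level of each of the 12246 kept genes in the Miwi +/- input (x axis) and the Miwi -/- input (y axis), both as log2(RPKM + 1), with 1 point per gene, red and blue for genes at least 2-fold lower or higher in Miwi -/- and a black line of equal level. Most points follow the line, 1295 lie below the 2-fold band and 547 above it, and the points farthest from the line are red, some of them on the x axis with no read in Miwi -/-.

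The largest difference was that of ENSMUSG00000026182, whose transcript is short, at 0.258 times the median length of the kept genes. It stood at 671 RPKM in the Miwi +/- input (2100 reads), 1.35 RPKM in the Miwi -/- input (4 reads) and 2296 RPKM in the Miwi ADH/- input (5268 reads). In the IPs it stood at 104 RPKM in Miwi +/-, 14.3 in Miwi -/- and 263 in Miwi ADH/-. The gene thus ranked 54th of all listed genes by RPKM in the Miwi +/- input, 12th in the Miwi ADH/- input and 10163rd in the Miwi -/- input. Its input level was 498-fold lower in Miwi -/- than in Miwi +/-, with a counting interval of 194 to 1829, and 3.42-fold higher in Miwi ADH/- than in Miwi +/- (3.25 to 3.603). Between the IPs, which are other libraries, it was 7.29-fold lower in Miwi -/- (4.82 to 11.5). Over all kept genes the Miwi -/- IP also lay below the Miwi +/- IP, with a median difference of -0.77. The fold is not corrected for that general decrease.

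ENSMUSG00000022501 followed the same order. It stood at 337 RPKM in the Miwi +/- input (1184 reads), 0.901 RPKM in the Miwi -/- input (3 reads) and 900.1 RPKM in the Miwi ADH/- input (2317 reads), and its length was 0.290 times the median. In the IPs it stood at 14.1 RPKM in Miwi +/-, 8.18 in Miwi -/- and 86.2 in Miwi ADH/-. Its input level was 374-fold lower in Miwi -/- than in Miwi +/- (128 to 1817). The 1.73-fold difference between the IPs of these genotypes had an interval of 0.943 to 3.31, which includes equality at 39 and 16 reads. It is not corrected for the general decrease of the Miwi -/- IP either.

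The 20 genes with the largest decrease, taken among genes whose mean level reached the median of the kept genes and whose counting interval left out equality, were nearly without reads in Miwi -/-. In the Miwi +/- input they lay between 28.1 and 671 RPKM, with a median of 62.4 RPKM. In the Miwi -/- input they lay between 0 and 1.90 RPKM, with a median of 0.462, and 3 of them had no read. The 2 ranges did not overlap, as the choice of the genes requires. In the Miwi ADH/- input, which took no part in the choice beyond the filters on level, the same 20 genes lay between 10.05 and 2296 RPKM, with a median of 116. In the IPs, their medians were 18.4 RPKM in Miwi +/-, 1.46 in Miwi -/- and 35.8 in Miwi ADH/-.

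The 175 genes at least 8-fold lower had a median level of 21.2 RPKM in the Miwi +/- input, with quartiles of 12.6 and 33.8, and of 0.479 RPKM in the Miwi -/- input, with quartiles of 0 and 1.29. In the Miwi -/- input 55 of them reached 1 RPKM and 50 (28.6%) had no read at all, against 4.45% of all kept genes. For a count of 0, 3 reads are used as a floor, an approximate limit, and the exact intervals allow for more. In the Miwi ADH/- input all 175 were at 1.61 RPKM or more, with a median of 29.6 RPKM and quartiles of 17.3 and 58.9. Together these genes held 34984 reads in Miwi +/- (0.893% of the listed reads), 1090 in Miwi -/- (0.0286%) and 42943 in Miwi ADH/- (1.63%). Per unit of depth the summed reads were 30.4-fold lower in Miwi -/- than in Miwi +/- (28.6 to 32.3), a description of genes chosen for that difference. The Miwi ADH/- and Miwi -/- inputs are both set against the same Miwi +/- column here, so their values are given side by side only.

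**Figure D3:**
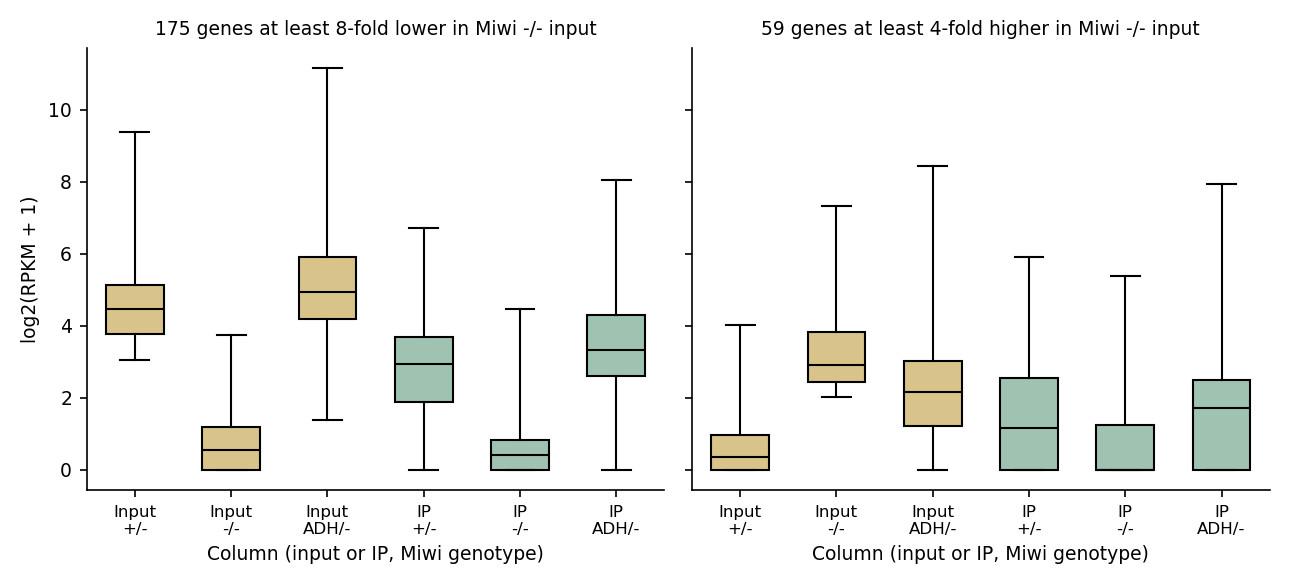
Level as log2(RPKM + 1) (y axis) of the 175 genes at least 8-fold lower (left) and the 59 genes at least 4-fold higher (right) in the Miwi -/- input, in each of the 6 columns (x axis), inputs in tan and IPs in green. Boxes span the quartiles with the median as a line and whiskers reach the lowest and highest gene. On the left the Miwi -/- input and IP lie low and the Miwi ADH/- input, with a median of 29.6 RPKM, lies near the Miwi +/- input, with 21.2, and on the right the Miwi ADH/- input, with a median of 3.45 RPKM, lies between the other inputs.

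In the groups with smaller decreases the median of the Miwi -/- input was the lowest of the inputs, and its place below Miwi +/- is set by the choice of the genes. The 279 genes 4 to under 8-fold lower had medians of 6.92 RPKM in Miwi +/-, 0.439 in Miwi -/- and 10.2 in Miwi ADH/-. The 841 genes 2 to under 4-fold lower had medians of 3.28, 0.627 and 3.80 RPKM, but gene by gene the median difference between the Miwi ADH/- and Miwi +/- inputs was -0.11 in that group, against 0.21 for the 279 genes. Most lower genes fell below 1 RPKM in the Miwi -/- input. Of the 1295, 819 were at 1 RPKM or more in Miwi +/- and below it in Miwi -/-, while 476 stayed at or above 1 RPKM in both. A gene kept only through the Miwi +/- input and another column had to be lower in part, so the 819 are given as a count and support nothing. No read was counted in the Miwi -/- input for 350 of the lower genes (27.0%), against 4.45% of all kept genes, and the choice of lower genes favours such zeros. Of the 350 genes, 85 had at least 30 reads in Miwi +/-. The one with the most had 229 reads (75.1 RPKM) there and 106 RPKM in the Miwi ADH/- input. Set against a floor of 3 reads it was 72.4-fold lower in Miwi -/-, and the exact 95% interval of its ratio began at 58.4-fold.

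The IP columns are separate libraries that share no column with the input comparison. In the labelled design the Miwi -/- IP has no MIWI to precipitate, so recovery with MIWI and the level in the starting RNA cannot be told apart in it. Over all kept genes the Miwi -/- IP was below the Miwi +/- IP, with a median difference of -0.77, 42.1% of genes at least 2-fold lower and 5.37% at least 2-fold higher. The genes with the largest decrease between the inputs were also the most often lower in the Miwi -/- IP than in the Miwi +/- IP. Of the 175 genes at least 8-fold lower in the input, 139 (79.4%) were at least 2-fold lower in the IP and 2 were higher, with a median difference of -2.26. Of the 279 genes 4 to under 8-fold lower, 165 (59.1%) were lower in the IP, with a median of -1.32. For the 841 genes 2 to under 4-fold lower the share was 43.5% and the median -0.69, and for the genes within 2-fold they were 41.1% and -0.76, both near the values of all kept genes. Of the 547 higher genes, 38.2% were lower in the IP and 10.8% higher, with a median of -0.45.

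Counted from the median of all kept genes, 19.4% of genes were at least 2-fold lower in the Miwi -/- IP and 13.9% at least 2-fold higher, and 118 of the 175 (67.4%) were lower. The Miwi -/- IP was shallow, with a median of 12 reads per kept gene. In it 46 of the 175 genes had no read, a share near that of all kept genes, 2897 of 12246. In the Miwi +/- IP the 175 genes had a median of 6.62 RPKM, against 4.14 for all kept genes, and a gene with a higher level has more room to be counted as lower.

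**Figure D4:**
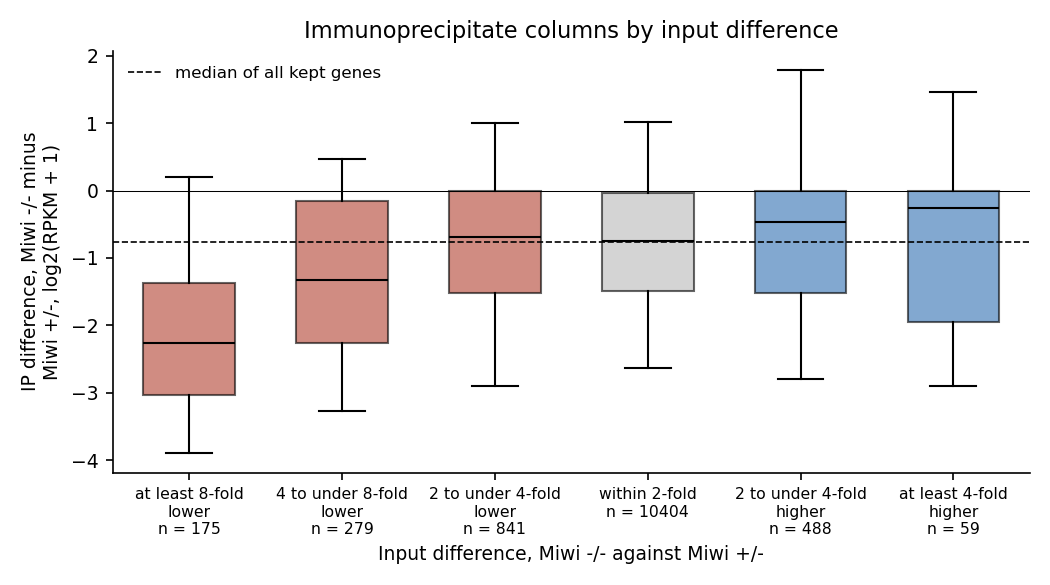
Difference of log2(RPKM + 1) between the Miwi -/- and Miwi +/- IPs (y axis) for kept genes grouped by their difference between the inputs of the same genotypes (x axis, n per group). Boxes span the quartiles with the median as a line, whiskers reach the 5th and 95th percentiles, and the dashed line marks the median of all kept genes at -0.77. The median is -2.26 for the genes at least 8-fold lower in the input and -1.32 for the next group, and the remaining groups lie near or above the dashed line.

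Transcripts higher in the Miwi -/- input were fewer, differed by smaller folds and had low levels. The 547 higher genes had a median of 1.15 RPKM in Miwi +/-, 5.12 in Miwi -/- and 3.24 in Miwi ADH/-. Of these, 250 crossed from below 1 RPKM in Miwi +/- to at least 1 RPKM in Miwi -/-, which the filter favours, and 297 were at 1 RPKM or more in both. In Miwi +/- 106 of them (19.4%) had no read, against 1.87% of all kept genes. None of the 106 had 30 or more recovered reads in Miwi -/-. The most-read of those had 29 reads there (2.67 RPKM), which is 10.2-fold against a floor of 3 reads, and the exact 95% interval of its ratio began at 7.78-fold. The 59 genes at least 4-fold higher were the shortest group by recovered length, with a median 0.243 times that of the kept genes. They had 490 reads in total in Miwi +/- and 4224 in Miwi -/-, and 14 of them reached 1 RPKM in Miwi +/- and 46 in Miwi ADH/-.

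By the rule for named genes, the largest increase belonged to ENSMUSG00000064851, a very short gene at 0.0934 times the median length. It had no read in the Miwi +/- input, 14 reads (13.1 RPKM) in the Miwi -/- input and 3 reads (3.62 RPKM) in the Miwi ADH/- input. Set against a floor of 3 reads its level in Miwi -/- was 4.92-fold higher, and the exact 95% interval of the ratio, which also takes in the error of the 14 reads, began at 3.499-fold. In the IPs it stood at 10.1 RPKM in Miwi +/-, 12.7 in Miwi -/- and 2.504 in Miwi ADH/-, on 9, 8 and 4 reads. Reads of this gene were thus counted in the Miwi +/- IP and not in its input, and the difference rests on few reads.

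The next largest increase by the same rule was that of ENSMUSG00000086161. It had 15.2 RPKM (76 reads) in the Miwi +/- input, 160.5 RPKM (759 reads) in the Miwi -/- input and 347 RPKM (1267 reads) in the Miwi ADH/- input. The level was 10.5-fold higher in Miwi -/- (8.31 to 13.5) and 22.8-fold higher in Miwi ADH/- (18.0 to 29.1) than in Miwi +/-, both set against the same 76 reads. In the IPs the order of the null and the heterozygote was the opposite, at 59.2 RPKM in Miwi +/-, 11.2 in Miwi -/- and 246 in Miwi ADH/-. The Miwi -/- IP was 5.30-fold below the Miwi +/- IP (3.64 to 7.99), not corrected for the general decrease of the Miwi -/- IP.

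The 20 genes with the largest increase, chosen in the same way, had a median difference of 2.02, against -5.38 for the 20 largest decreases. They lay between 0 and 47.4 RPKM in Miwi +/-, with a median of 4.09, and between 5.65 and 176 RPKM in Miwi -/-, with a median of 20.7. In the Miwi ADH/- input they lay between 2.90 and 347 RPKM, with a median of 20.3. The genes were chosen for a low Miwi +/- value and had to reach a mean level over 6 columns, which include Miwi ADH/-. That choice favours a Miwi ADH/- value above Miwi +/-, so the median of 20.3 is a description only. The IP medians of the 20 genes were 6.96 RPKM in Miwi +/-, 3.12 in Miwi -/- and 13.1 in Miwi ADH/-.

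Differences were concentrated in transcripts of low and middle level. Genes were classed by the mean of log2(RPKM + 1) over all 6 columns, which includes both inputs compared. Of the 4861 genes with a mean under 2, 16.0% were lower and 7.34% higher, and 31 were at least 8-fold lower. The 4512 genes at 2 to under 4 held most of the strong decreases, 123 of the 175, with 10.2% lower and 3.06% higher. With 1 RPKM added to each value, a gene of low level cannot be 8-fold lower, and the lowest of the 175 stood at 7.36 RPKM in the Miwi +/- input. The number of strong decreases in the lowest class is therefore limited by the scale. Of the 2220 genes at 4 to under 6, 2.39% were lower and 1.94% higher, and 20 were at least 8-fold lower. Among the 653 genes at 6 and more, 3 were lower and 9 higher. By this mean, lower genes outnumbered higher ones in the 3 lower classes and not in the highest. A gene lost in Miwi -/- moves to a lower class, so the classes cannot show whether genes of high level were spared. Among the top 1000 genes of the Miwi +/- input 21 were lower and 7 higher, and among those of the Miwi -/- input 1 was lower and 23 were higher.

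The shorter the genes by recovered length, the larger was the share called in both directions. Recovery makes a gene too short where its reads share a divisor, and the shares were not corrected for this. Lower were 19.1%, 10.5%, 7.71% and 4.997% of the genes of the 4 quartiles, and higher were 9.14%, 4.64%, 2.84% and 1.24%. The shortest quartile, under 0.616 times the median length, held 115 of the 175 genes at least 8-fold lower and all 9 that were 8-fold higher, and the longest held 6 of the 175. Short genes gather fewer reads, which widens their counting error, and in the shortest quartile the counting interval left out equality for 512 of 585 lower genes and 218 of 280 higher ones, while in the 3 longer quartiles it did so for all. In the genes whose mean level reached the median, the order held for the lower genes, at 10.8%, 5.56%, 3.74% and 1.92%. That cut is on RPKM and not on reads, so short genes in it can still have few reads. The shares of higher genes there were 3.54%, 1.79%, 1.84% and 0.998%, with the middle quartiles in the opposite order. Over all kept genes the median difference lay between -0.03 and -0.01 in the 4 quartiles, and in the genes whose mean level reached the median between 0.002 and 0.023.

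**Figure D5:**
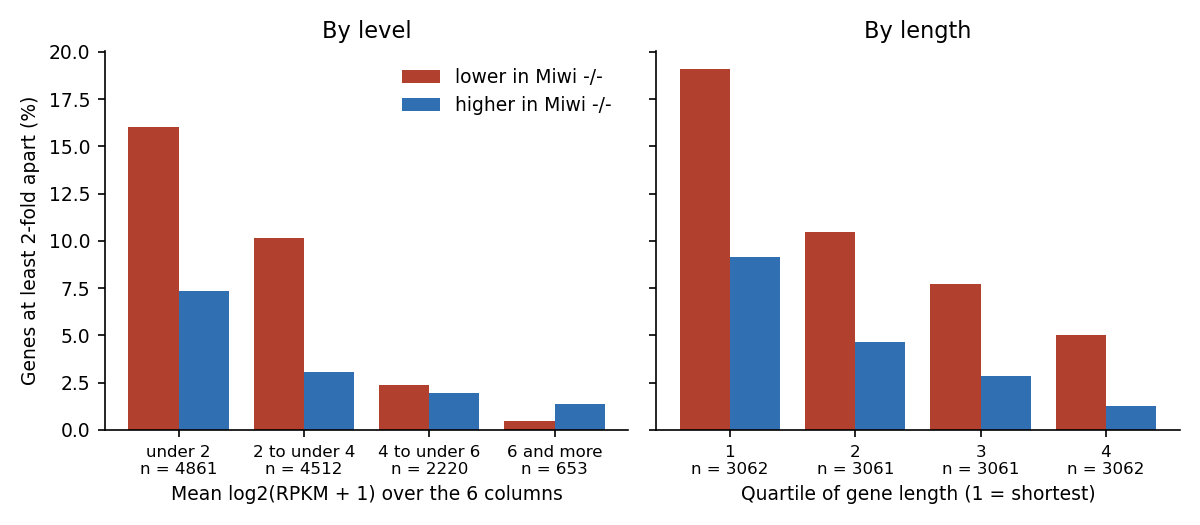
Percentage of kept genes at least 2-fold lower (red) or higher (blue) in the Miwi -/- input (y axis), by mean log2(RPKM + 1) over the 6 columns (left) and by quartile of gene length (right), with the number of genes under each class. Both percentages fall with level and with length, from 16.0% and 7.34% in the lowest class of level and from 19.1% and 9.14% in the shortest quartile.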

How the data were processed

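The submitters' processing notes name Bowtie, TopHat and the genome build mm9, without versions or roles. The counter, the annotation and the pooling of the 2 samples of a group into a column are not stated in them. The deposited RPKM table, as computed by the authors, names its unit for the Miwi +/- columns only. The others step in the same proportions per gene and were taken as RPKM too. All 6 columns were used. Whole reads were recovered by finding, per gene, the largest step that divides its depth-scaled values with a remainder of at most 0.002 reads plus 1e-07 times the reads. A step was found for all 17452 genes with values in more than 1 column, the 12246 kept genes among them. This does not check the counts, since a fit is easily found with values in few columns and a multiple of the counts fits as well. Gene length is given relative to the median. It is known up to a common factor only where the reads of a gene share no divisor. Otherwise the largest step gives too few reads and too short a length, which was not corrected.

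Differences, filters and intervals were computed with Python 3.11.15, numpy 2.4.6, pandas 2.3.3 and scipy 1.17.1, and checked on simulated data. Named were the 2 genes per direction with the largest difference among those at or above the median level of the kept genes, with a counting interval of the ratio that leaves out 1. The pseudocount, filter, scaling and fold were varied. The comparison, groups and 23 gene lists were chosen with earlier results of these data known. The lists and promoter motifs gave no values, since no identifier matched a symbol.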

Additional observations from a re-analysis of the deposited data

How the results depend on the processing

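The counts of lower and higher genes were recomputed under 9 alternatives and that of genes at least 8-fold lower under 8. Most stayed within 1.5 times the reported count: 1222 to 1878 genes were lower and 485 to 739 higher under those alternatives. The exceptions were the pseudocount and the fold. At 0.1 RPKM as the pseudocount 977 genes were higher and 701 at least 8-fold lower, and at 0.5 RPKM 303 were at least 8-fold lower, all 175 reported ones among them, since a smaller pseudocount widens the differences of genes near 0. At 4-fold, 454 genes were lower and 59 higher. Scaling to the median, to median-of-ratios factors or to equal column sums left 170 to 183 genes at least 8-fold lower. Lower genes made up 65.8% to 72.5% of all genes called over the pseudocounts, filters and scalings, against 70.3% as reported. The 4 named genes kept their direction under all 7 alternatives run on them. The difference of ENSMUSG00000064851, with no read in Miwi +/-, went from 3.81 to 7.04 at the pseudocount of 0.1, and the others moved by less than their counting intervals. No paired analysis was possible because the columns carry no replicate number and there is 1 per group, so no replicate could be left out either. The gene lists and promoter motifs were not run. Depth limits genes of few reads: 3 reads are the floor for a count of 0.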
